A study of Homo sapiens with 6 samples.

Results

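The enzymes described here make asparagine, serine and proline from central carbon intermediates and pass one-carbon units from serine through the mitochondrial folate cycle. The set holds 10 genes, taken by symbol from a deposited table of 14987 genes, and all 10 were listed. ASNS makes asparagine. PHGDH, PSAT1 and PSPH form the serine pathway. SHMT2, MTHFD2, MTHFD1L and ALDH1L2 form the mitochondrial folate arm, and ALDH18A1 and PYCR1 make proline.

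Serine synthesis branches off glycolysis at 3-phosphoglycerate, and PHGDH, PSAT1 and PSPH act on it in that order. SHMT2 then splits serine into glycine and a one-carbon unit, which MTHFD2 and MTHFD1L turn into formate for export to the cytosol. Several of these genes are known targets of ATF4, the transcription factor that accumulates when kinases of the integrated stress response slow translation. That program is known for its response to amino acid shortage and reticulum stress, and PHGDH and MTHFD2 are expressed at high levels in many tumours.

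RNA came from HCT116, an established human colorectal carcinoma line. Glucose was withheld for 6 h from YAP knockdown cells made with the construct shYAP1 or shYAP3 and from NC cells, which are labelled wild type, and each of these lines also gave 1 library in control medium. There were thus 3 deprived libraries (shYAP1, shYAP3, NC) and 3 control libraries (shYAP1, shYAP3, NC). Each construct is 1 line, replicate cultures are not stated, and p-values measure only the spread between these libraries. The libraries held 16912634 to 22161075 reads over the listed genes, and the deposited normalized signal of 1 read was 0.0406 to 0.0693. YAP1, the target of the knockdown, stood at 20.3 and 18.2 in deprived shYAP1 and shYAP3 cells, against 154 in deprived NC cells, and at 35.7 and 38.2 in shYAP1 and shYAP3 cells in control medium, against 188 in NC cells. Of 8 colorectal epithelial markers 7 were listed, with a summed share of 0.369% to 0.514% of reads in deprived and 0.308% to 0.420% in control libraries. The markers of fibroblasts summed to at most 0.00123% of reads in any library, those of leukocytes to 0.00224% and those of endothelium to 0.000747%. By transcript length the shYAP3 deprived library deviated most. Its values differed from each gene's mean by a median of 0.44 (log2) in the shortest 10th of genes and −0.29 in the longest. These medians were 0.14 and −0.08 in deprived shYAP1 cells and −0.07 and 0.05 in deprived NC cells. In the control libraries they were −0.19 to −0.15 and 0.10 to 0.12, so the length trend also differed between media.

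Glucose deprivation raised ASNS, PHGDH, PSAT1, SHMT2 and MTHFD2, 5 of the 10 genes, and lowered none. ASNS rose 4.30-fold, PSAT1 2.20-fold, MTHFD2 2.15-fold, PHGDH 2.02-fold and SHMT2 1.37-fold. The calls come from limma on log2(value + 1) over all 6 libraries, with p-values adjusted over 12263 genes and a threshold of 0.05, and fold changes are on that scale. Of all genes tested, 16.5% were called higher and 15.6% lower (32.1% either way). The median log2 fold change was 0.42 over the 10 members and 0.05 over all genes. In bulk libraries a change per cell and a change in the mix of cells cannot be told apart. The 10 genes together took 0.193%, 0.220% and 0.232% of listed reads in deprived shYAP1, shYAP3 and NC cells, against 0.149%, 0.147% and 0.155% in the same lines in control medium.

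**Figure D1:**
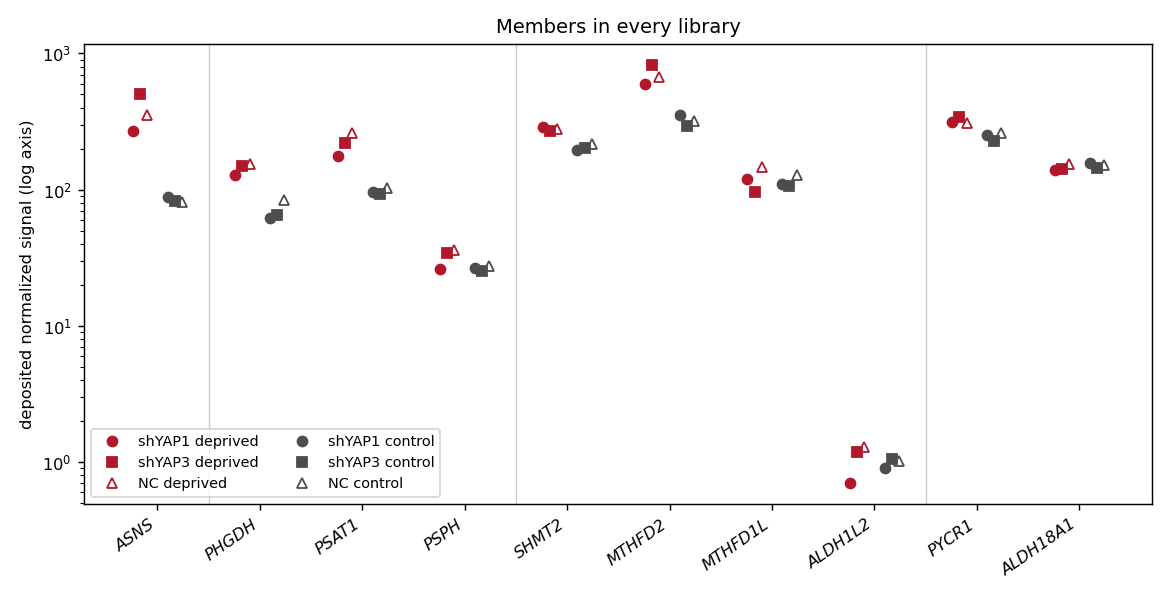
Deposited normalized signal (log axis) of the 10 members in each library, deprived in red left of control in grey, with shYAP1 as circles, shYAP3 as squares and NC as open triangles. Deprived and control libraries are separate for ASNS, PHGDH, PSAT1, SHMT2, MTHFD2 and PYCR1 and overlap for PSPH, MTHFD1L, ALDH1L2 and ALDH18A1. Of all genes tested, 26.8% had every deprived library above every control library and 23.8% had every one below.

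ASNS (ENSG00000070669), asparagine synthetase, transfers an amide group from glutamine to aspartate. Its signal was 269 in shYAP1, 503 in shYAP3 and 352 in NC cells after deprivation, against 88.1, 81.9 and 81.1 in the same lines in control medium. The control libraries lay close together and all deprived libraries lay far above them, with shYAP3 highest and shYAP1 lowest. The log2 fold change was 2.10 (SE 0.21, limma adjusted p = 0.00050), at percentile 99.7 of all genes tested. By line the log2 change was 1.60 in shYAP1, 2.60 in shYAP3 and 2.10 in NC cells. ATF4 itself, a known activator of ASNS, averaged 621 ± 26.8 in deprived and 274 ± 27.5 in control libraries (SD, n = 3), and it rose by 1.18 on the log2 scale (SE 0.14, adjusted p = 0.0010 in limma).

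The ASNS promoter is the textbook site of a composite element for C/EBP and ATF factors, and the windows below are shown because the pattern TGATGNAA lies both in the window of a gene that rose and in that of one that did not. RefSeq promoter windows, 250 bases before to 50 after each start (GRCh38.p14), were found for 6 of the 10 members, namely ASNS, PHGDH, PSAT1, MTHFD2, MTHFD1L and ALDH18A1. They were searched on both strands for TGATGNAA, for its looser form TGATNNAA, which includes every match of the first, and for GGAATG, the core of the TEAD site. The capitals mark TGATGNAA in ASNS and MTHFD1L and TGATNNAA in PSAT1. The ASNS stretch is chr7:97872409-97872508 on the minus strand, the last 100 bases before a start, with the match beginning 68 bases before it. The PSAT1 stretch is chr9:78296925-78297024 on the plus strand, with the match beginning 184 bases before the start. The MTHFD1L stretch is chr6:150866346-150866375 on the plus strand.
ASNS: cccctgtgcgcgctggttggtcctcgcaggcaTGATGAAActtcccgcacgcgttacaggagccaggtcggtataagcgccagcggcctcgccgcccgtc
PSAT1: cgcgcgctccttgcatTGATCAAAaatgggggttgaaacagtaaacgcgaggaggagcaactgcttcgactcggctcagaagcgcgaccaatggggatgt
MTHFD1L: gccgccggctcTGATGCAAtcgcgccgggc

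TGATGNAA was found for 2 of the 6 members with a window, ASNS and MTHFD1L, and for 1217 of all 27305 genes with a window (4.46%). In MTHFD1L the match begins 129 and 90 bases before a pair of the 4 listed starts and 25 bases after another. TGATNNAA was found for 3 of the 6 members, PSAT1 added, and for 11.8% of all genes with a window. GGAATG was found for 0 of the 6 members and for 16.7% of all genes with a window. PHGDH and MTHFD2, which rose, hold none of these letters in their windows. A match describes the letters of the window and was not tied to binding here.

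The serine pathway rose at its first and second steps. PHGDH (ENSG00000092621), the dehydrogenase that commits 3-phosphoglycerate to serine, stood at 127 in shYAP1, 148 in shYAP3 and 153 in NC cells after deprivation, against 62.2, 65.2 and 84.2 in control medium. Every deprived library lay above every control library, and NC was the highest line in both media. Its log2 fold change was 1.02 (SE 0.13, limma adjusted p = 0.0017). PSAT1 (ENSG00000135069), the aminotransferase of the second step, stood at 177 in shYAP1, 219 in shYAP3 and 259 in NC cells after deprivation, against 96.3, 92.7 and 103 in control medium. The groups did not overlap, and NC was again highest in both media. The log2 fold change of PSAT1 was 1.14 (SE 0.14, limma adjusted p = 0.0013).

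PSPH (ENSG00000146733), the phosphatase that releases free serine in the last step, had a smaller fitted difference and did not pass. It stood at 25.9 in shYAP1, 34.2 in shYAP3 and 35.8 in NC cells after deprivation, against 26.7, 25.4 and 27.3 in control medium. The shYAP1 deprived library lay among the control libraries and the other deprived libraries above them. The log2 fold change was 0.25 (SE 0.15, 95% interval −0.09 to 0.59, limma adjusted p = 0.22). Scaled to listed reads the value was −0.05.

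In the mitochondrial folate arm the genes moved unequally. MTHFD2 (ENSG00000065911), the bifunctional dehydrogenase and cyclohydrolase, stood at 592 in shYAP1, 824 in shYAP3 and 669 in NC cells after deprivation, against 350, 292 and 319 in control medium. As with ASNS, shYAP3 was the highest deprived library and shYAP1 the lowest, while in control medium shYAP1 was highest. Its log2 fold change was 1.11 (SE 0.17, limma adjusted p = 0.0026). SHMT2 (ENSG00000182199), the hydroxymethyltransferase that feeds the arm with one-carbon units from serine, stood at 290 in shYAP1, 270 in shYAP3 and 280 in NC cells after deprivation, against 196, 201 and 216 in control medium. The groups did not overlap, and each line differed little from the others. The log2 fold change of SHMT2 was 0.45 (SE 0.13, limma adjusted p = 0.026).

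The call for SHMT2 ended with quantile normalization (log2 0.20, adjusted p = 0.23) and with values scaled to listed reads (log2 0.15, adjusted p = 0.42). In limma it also ended without the NC control (adjusted p = 0.088), shYAP1 control (0.15), shYAP3 control (0.14) or NC deprived library (0.087), with log2 fold changes of 0.43 to 0.49. With the NC and shYAP responses weighted equally the adjusted p of SHMT2 was 0.086 in limma.

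MTHFD1L (ENSG00000120254), the mitochondrial formyltetrahydrofolate synthetase that releases formate, did not pass. Its signal was 120 in shYAP1, 95.2 in shYAP3 and 146 in NC cells after deprivation, against 111, 106 and 128 in control medium. The shYAP3 deprived library was the lowest of all 6 and the NC deprived library the highest. The log2 fold change was 0.05 (SE 0.14, 95% interval −0.27 to 0.37, limma adjusted p = 0.81), and it was −0.26 scaled to listed reads and −0.11 with quantile normalization. With length and GC trends removed and without the shYAP3 deprived library, a setting chosen after seeing the data, it passed at 0.23 (limma adjusted p = 0.026).

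ALDH1L2 (ENSG00000136010), which oxidises formyl-tetrahydrofolate to carbon dioxide in mitochondria and yields NADPH, was near the filter on low values. It had 12 reads in shYAP1, 17 in shYAP3 and 24 in NC cells after deprivation, against 22, 23 and 23 in control medium. The normalized signal was 0.697, 1.18 and 1.28 in deprived shYAP1, shYAP3 and NC cells and 0.893, 1.05 and 1.01 in control medium. At this depth no difference was detectable (log2 0.04, 95% interval −0.35 to 0.43, limma adjusted p = 0.88).

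Neither proline enzyme passed. PYCR1 (ENSG00000183010), the mitochondrial reductase that closes the pathway, stood at 316 in shYAP1, 343 in shYAP3 and 308 in NC cells after deprivation, against 252, 228 and 259 in control medium. All deprived libraries lay above all control libraries, as did 26.8% of genes tested, while 23.8% lay below in all. The log2 fold change of PYCR1 was 0.39 (SE 0.13, 95% interval 0.08 to 0.69) and missed the threshold in limma (adjusted p = 0.053). It passed without the shYAP3 deprived library (log2 0.33, adjusted p = 0.018) and with length and GC trends removed (log2 0.36, adjusted p = 0.031), whereas scaled to listed reads it was 0.08 (adjusted p = 0.64). ALDH18A1 (ENSG00000059573), the synthase that opens the pathway from glutamate, stood at 139 in shYAP1, 142 in shYAP3 and 155 in NC cells after deprivation, against 157, 143 and 152 in control medium. Its groups overlapped on this scale (log2 −0.06, 95% interval −0.34 to 0.23, limma adjusted p = 0.76). Scaled to listed reads they did not overlap, with log2 changes of −0.42 in shYAP1, −0.49 in shYAP3 and −0.18 in NC cells. Under that scaling 3820 of 12309 genes were called lower and 749 higher, and the median log2 fold change over all genes was −0.24. How many genes had groups without overlap under that scaling was not counted. ALDH18A1 passed in 0 of 18 other settings.

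**Figure D2:**
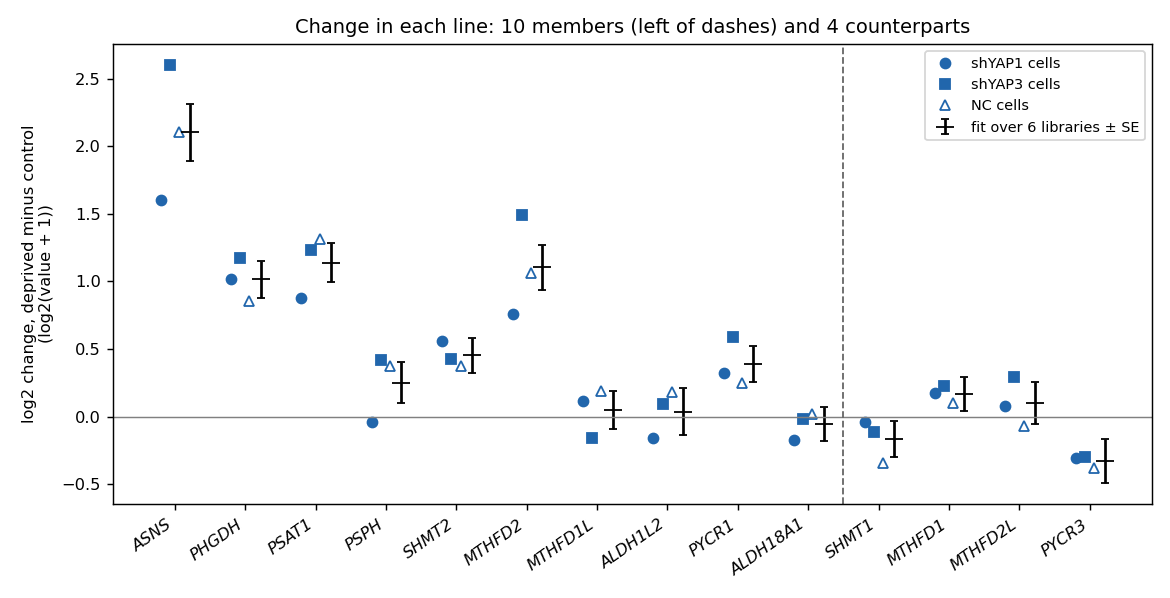
Log2 change from control to deprived medium on the log2(value + 1) scale in shYAP1 (circles), shYAP3 (squares) and NC cells (open triangles), with the fitted change over 6 libraries and its SE in black, for the 10 members and, right of the dashed line, 4 counterparts. ASNS lies between 1.60 and 2.60 in the 3 lines, and the counterparts lie between −0.38 and 0.29 in every line.

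Levels of different genes were compared as RPKM, computed from the recovered reads with the longest annotated transcript (GENCODE v29) and the listed reads of each library, and that transcript need not be the one expressed. In control medium ASNS ranked 6 of the 10, and after deprivation it ranked 2. ASNS averaged 145 ± 37.4 RPKM in deprived and 40.6 ± 1.52 in control libraries (SD, n = 3). MTHFD2 averaged 143 ± 16.9 in deprived and 82.0 ± 4.85 in control libraries, so that after deprivation the levels of ASNS and MTHFD2 differed by less than their spread. PYCR1 held the highest mean in both media, at 156 ± 2.58 in deprived and 148 ± 5.55 in control libraries, and after deprivation ASNS, MTHFD2 and PYCR1 could not be ordered beyond their spread. PSAT1 stood at 92.5 ± 21.0 in deprived and 50.9 ± 2.24 in control libraries. ALDH18A1 stood at 40.1 ± 4.68 in deprived and 51.3 ± 0.693 in control libraries, and in control medium it could not be ordered against PSAT1 beyond their spread. PSPH, at 13.6 ± 2.49 in deprived and 13.9 ± 0.275 in control libraries, and ALDH1L2, at 0.129 ± 0.0400 in deprived and 0.149 ± 0.0166 in control libraries, ranked last in both media.

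**Figure D3:**
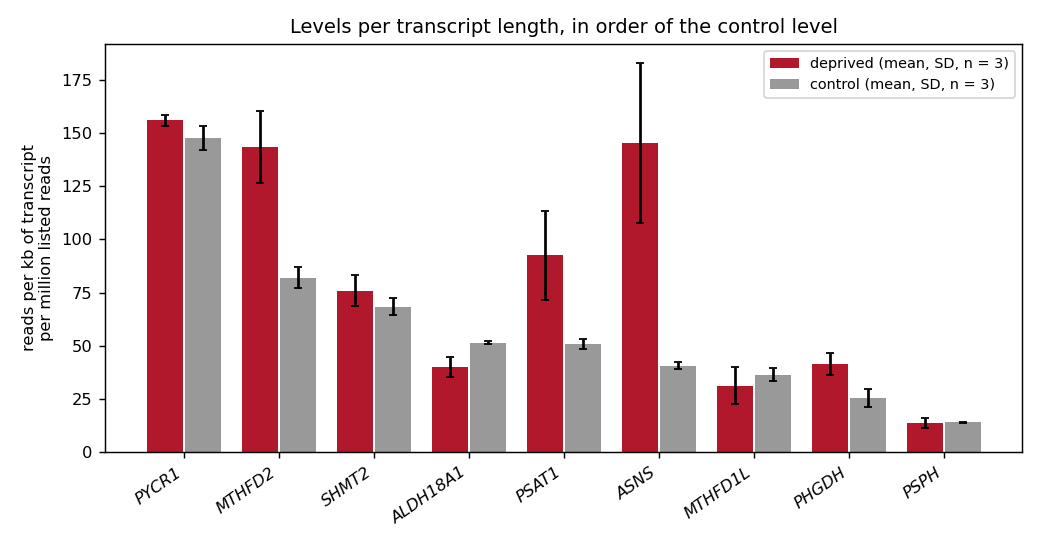
Mean RPKM (recovered reads, longest transcript, listed reads of the library), with SD over 3 libraries, in deprived (red) and control (grey) medium for 9 members in the order of the control level. ALDH1L2, at 0.129 in deprived and 0.149 in control medium, is left out because its bars would not be visible. ASNS reaches the level of MTHFD2 and PYCR1 after deprivation.

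ASNS and MTHFD2 had a Pearson r of 0.994 over the 6 libraries, given as a description, since the deprived and control libraries form separate groups. The 5 genes with the highest r to ASNS were SERP1 (0.9997), CERS5 (0.9975), GRPEL2 (0.9975), NPC2 (0.9975) and TMEM125 (0.9973), out of 12262 compared, of which 49 were above 0.99. All values share the same 6 libraries and their depth.

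Most steps of the mitochondrial arm have a cytosolic counterpart. In limma 0 of the 4 counterparts and paralogs tested here passed, beside 32.1% of all genes tested. SHMT1, the cytosolic hydroxymethyltransferase, stood at 45.0 in shYAP1, 40.8 in shYAP3 and 40.9 in NC cells after deprivation, against 46.3, 44.2 and 52.3 in control medium (log2 −0.17, limma adjusted p = 0.36). MTHFD1, the trifunctional cytosolic enzyme, averaged 209 ± 0.919 in deprived and 186 ± 7.82 in control libraries (log2 0.17, adjusted p = 0.32; SD, n = 3). Every MTHFD1 deprived library lay above every control library, as did 26.8% of genes tested, while 23.8% lay below in all. MTHFD2L, a mitochondrial paralog of MTHFD2, averaged 11.1 ± 2.19 in deprived and 10.2 ± 0.612 in control libraries (log2 0.10, limma adjusted p = 0.63). PYCR3, the cytosolic reductase listed as PYCRL, averaged 13.3 ± 1.74 in deprived and 16.9 ± 2.17 in control libraries (log2 −0.33, limma adjusted p = 0.15). ALDH1L1, the cytosolic relative of ALDH1L2, had 1 to 5 reads in each library and was not tested.

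Scaled to listed reads, SHMT1 (log2 −0.47, adjusted p = 0.031) and PYCR3 (−0.62, adjusted p = 0.020) passed lower in limma. That scaling called 3820 of 12309 genes lower and 749 higher, with a median log2 fold change of −0.24 over all genes. PYCR3 also passed without the shYAP3 deprived library (−0.44, limma adjusted p = 0.020). With length and GC trends removed MTHFD1 passed higher (0.35, adjusted p = 0.028).

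The ratio of SHMT2 to SHMT1, as values + 1, was 6.33 in shYAP1, 6.47 in shYAP3 and 6.71 in NC cells after deprivation, against 4.17, 4.47 and 4.07 in control medium. The ratio was thus 1.54-fold higher after deprivation and did not overlap with control medium. The ratio of MTHFD2 to MTHFD1 was 2.84 in shYAP1, 3.91 in shYAP3 and 3.19 in NC cells after deprivation, against 1.90, 1.63 and 1.64 in control medium, 1.91-fold higher. The ratio of PYCR1 to PYCR3 was 1.64-fold higher, with values of 21.5 to 25.2 in deprived and 11.6 to 16.3 in control libraries. The ratio of MTHFD1L to MTHFD1 was 0.578, 0.456 and 0.700 in deprived shYAP1, shYAP3 and NC cells and 0.603, 0.595 and 0.659 in control medium, and its groups overlapped. In exact two-sided permutation tests the first 3 ratios gave p = 0.1, the smallest that 3 against 3 libraries allow, and the last p = 0.7 (0.13 and 0.7 adjusted over the 4 ratios). The share of other gene pairs whose ratio separates the media was not computed. Of single genes tested, 26.8% had every deprived library above every control library and 23.8% had every one below.

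Other genes around these pathways were taken from 5 lists of 45 genes, of which 42 were listed and 38 tested. In the response 10 of the 38 rose and 4 fell, with a median log2 fold change of 0.15, against 0.05 over all genes tested. Of all genes tested 16.5% rose and 15.6% fell.

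Genes of folate supply moved both ways, 1 of 10 tested higher and 2 lower. SLC46A1, the proton-coupled folate transporter, had the largest decrease of the 38, at 13.9 in shYAP1, 10.7 in shYAP3 and 17.5 in NC cells after deprivation, against 30.6, 30.4 and 36.2 in control medium. The groups lay far apart (log2 −1.17, SE 0.15, limma adjusted p = 0.0015). SLC19A1, the reduced folate carrier, averaged 35.9 ± 6.77 in deprived and 57.7 ± 4.86 in control libraries (log2 −0.68, adjusted p = 0.013; SD, n = 3). FPGS, which adds glutamate tails that retain folates in the cell, rose from this list (log2 0.58, adjusted p = 0.014), and MTFMT, which formylates the mitochondrial initiator tRNA, did not pass (log2 −0.38, limma adjusted p = 0.072).

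Of 8 genes of glycine cleavage and serine transport, DLD, a dehydrogenase shared with other mitochondrial complexes, rose (log2 0.67, limma adjusted p = 0.017) and SFXN3, a mitochondrial serine carrier, fell (−0.51, adjusted p = 0.017). SFXN1, the main mitochondrial serine carrier, did not pass (−0.31, limma adjusted p = 0.084). Of 11 genes of serine use 5 rose and 1 fell. SERINC1, named for serine incorporation, rose 2.30-fold to 125, 168 and 105 in shYAP1, shYAP3 and NC cells, against 61.4, 57.2 and 49.8 in control medium. SPTLC1, a subunit of the palmitoyltransferase that starts sphingolipid synthesis (log2 0.63), SDSL (0.57), CTH, which makes cysteine from cystathionine (0.54), and SERINC3 (0.43) rose as well. PTDSS1, a phosphatidylserine synthase, fell (−0.41, limma adjusted p = 0.041), and PTDSS2 did not pass (−0.39, adjusted p = 0.055).

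Around asparagine 2 of 4 genes rose. ASNSD1, which holds an asparagine synthetase-like domain, rose 2.01-fold to 67.5, 119 and 63.3 in shYAP1, shYAP3 and NC cells, against 41.1, 40.6 and 36.1 in control medium. AGA, a lysosomal enzyme that cleaves asparagine from sugar chains, rose 1.70-fold, and NARS, the asparaginyl-tRNA synthetase, did not pass (log2 0.35, limma adjusted p = 0.14). Around proline and ornithine 1 of 5 rose, namely ARG2, the mitochondrial arginase (log2 0.85, limma adjusted p = 0.018). ALDH4A1, which returns proline carbon to glutamate, did not pass (0.36, adjusted p = 0.070). Of these 14 calls, SLC46A1, SERINC1 and ASNSD1 passed in each of 18 other settings, and each of the others missed the threshold without at least 1 library.

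**Figure D4:**
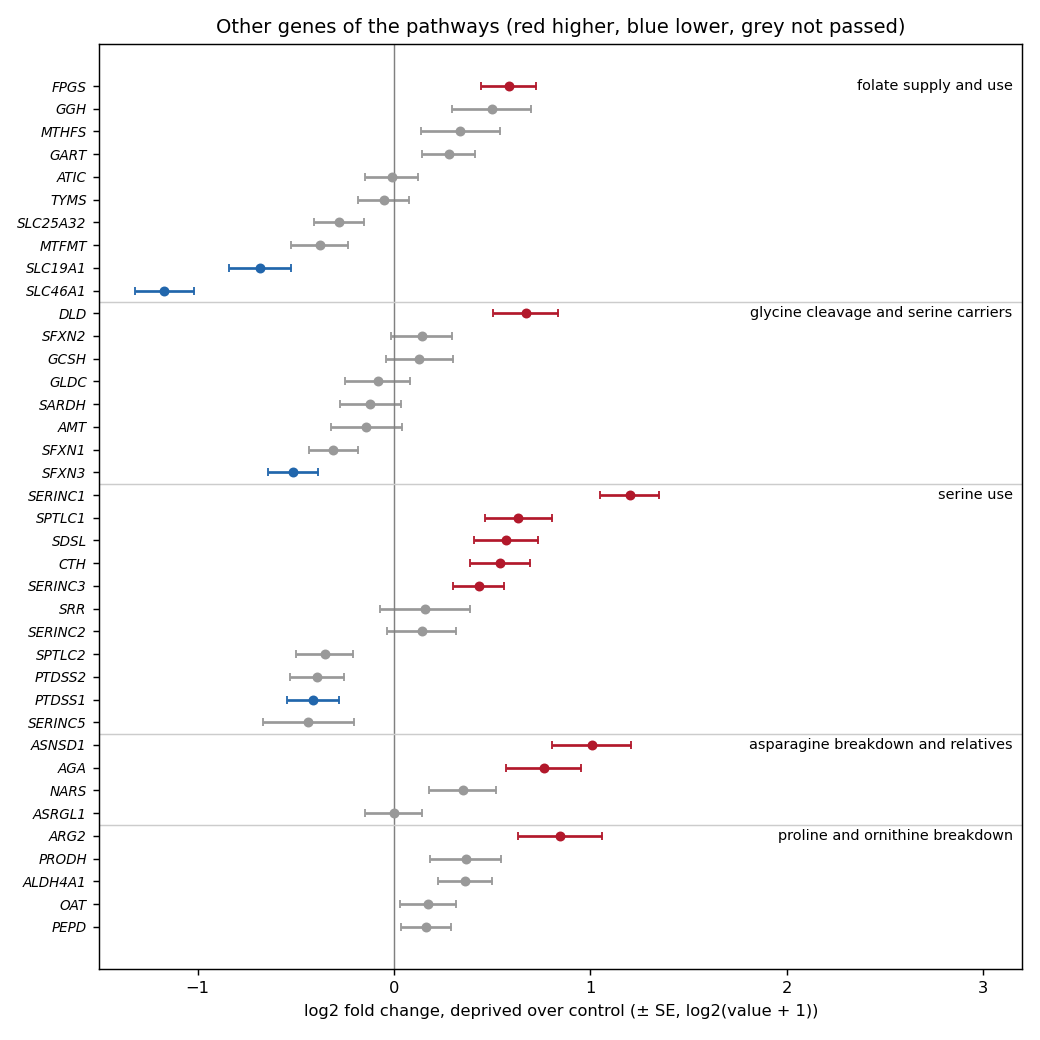
Log2 fold change of deprived over control medium (log2(value + 1), with SE) for 38 tested genes of 5 lists around these pathways, red where higher, blue where lower and grey where the threshold was missed. The range runs from −1.17 for SLC46A1 to 1.20 for SERINC1.

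Knockdown of YAP left no member past the threshold, with 0 of 10 higher and 0 lower over both media in limma, beside 1 lower and 0 higher of all 12263 genes (0.00815% lower and 0% higher). At an unadjusted limma p under 0.05 there was 1 member, MTHFD1L, beside 898 of all 12263 genes. DESeq2 and edgeR called 0 members. MTHFD1L had a log2 fold change of −0.34 (SE 0.15, 95% interval −0.68 to −0.00361, adjusted p = 0.58). PHGDH had −0.28 (95% interval −0.60 to 0.05, limma adjusted p = 0.58) and PSAT1 −0.26 (−0.60 to 0.08, adjusted p = 0.58). In both media PHGDH, PSAT1, PSPH and MTHFD1L were below NC cells in both shYAP lines, 4 of 10 members, as were 20.8% of genes tested, and 0 members were above in all, beside 16.4% of genes. For ASNS the difference was 0.07 (95% interval −0.44 to 0.57) and for MTHFD2 0.03 (−0.36 to 0.43).

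The response to deprivation did not differ between genotypes past the threshold for any member, with 0 of 10 in limma, edgeR and DESeq2. In limma 0 of all 12263 genes passed (0%). At an unadjusted limma p under 0.05 there were 0 members, beside 111 of all genes. The difference, shYAP response minus NC response, was −0.003 for ASNS (95% interval −1.19 to 1.18), 0.24 for PHGDH (−0.47 to 0.95), −0.26 for PSAT1 (−1.01 to 0.48) and 0.06 for MTHFD2 (−0.86 to 0.98) on the log2 scale. The NC response rests on 1 library per medium and the interval for ASNS spans more than 1 log2 unit either way. Without the shYAP1 or the shYAP3 deprived library, each genotype kept 1 deprived library. The spread then came only from the 2 shYAP control libraries, so genes called in those fits are not counted here. Over 12 other settings the ASNS difference ran from −0.45 to 0.45. In NC cells, with no test, the log2 change was 2.10 for ASNS, 1.31 for PSAT1, 1.07 for MTHFD2, 0.86 for PHGDH, 0.38 for PSPH, 0.37 for SHMT2 and 0.25 for PYCR1.

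Within shYAP cells ASNS (log2 2.10), MTHFD2 (1.13), PHGDH (1.10) and PSAT1 (1.05) rose, 4 of 10 members, with limma adjusted p from 0.018 to 0.034, beside 5.62% of all genes higher and 5.90% lower (11.5% either way). With the construct as a replicate block these 4 calls held, and 1781 of all genes were called higher and 1567 lower, against 689 and 723 without the block. Without the shYAP1 control or the shYAP3 control library ASNS alone passed, and with no filter on low values 0 passed (limma adjusted p = 0.11 for ASNS). With no filter 0 of all 14987 genes passed in either direction, so that loss was not particular to the members. SHMT2 (0.49, limma adjusted p = 0.087) and PYCR1 (0.46, adjusted p = 0.11) did not pass in these cells.

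The 2 constructs did not differ past the threshold for any member, with 0 of 10 in limma, edgeR and DESeq2. In limma 0.155% of all genes passed (0.0897% higher and 0.0652% lower). At an unadjusted limma p under 0.05 there were 0 members, beside 693 of 12263 genes. For ASNS shYAP1 minus shYAP3 was −0.40 (95% interval −0.89 to 0.10), with the deprived library lower and the control library slightly higher in shYAP1 cells. The shYAP3 deprived library had both the strongest length dependence and the highest ASNS and MTHFD2 values. The longest annotated transcript was 2356 bases for ASNS and 4456 for MTHFD2. Whether the length dependence had a part in these values was not tested. Without that library the response was 1.85 for ASNS and 0.96 for MTHFD2, and both still passed.

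ASNS, PHGDH, PSAT1 and MTHFD2 passed in the response in each of 18 other settings. Scaling to listed reads lowered the median of all genes to −0.24, against 0.05 with the authors' scaling, and the log2 fold changes were then 1.80 for ASNS, 0.83 for PSAT1, 0.80 for MTHFD2 and 0.71 for PHGDH. Members with small differences changed sign under that scaling, namely PSPH, MTHFD1L and ALDH1L2.

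**Figure D5:**
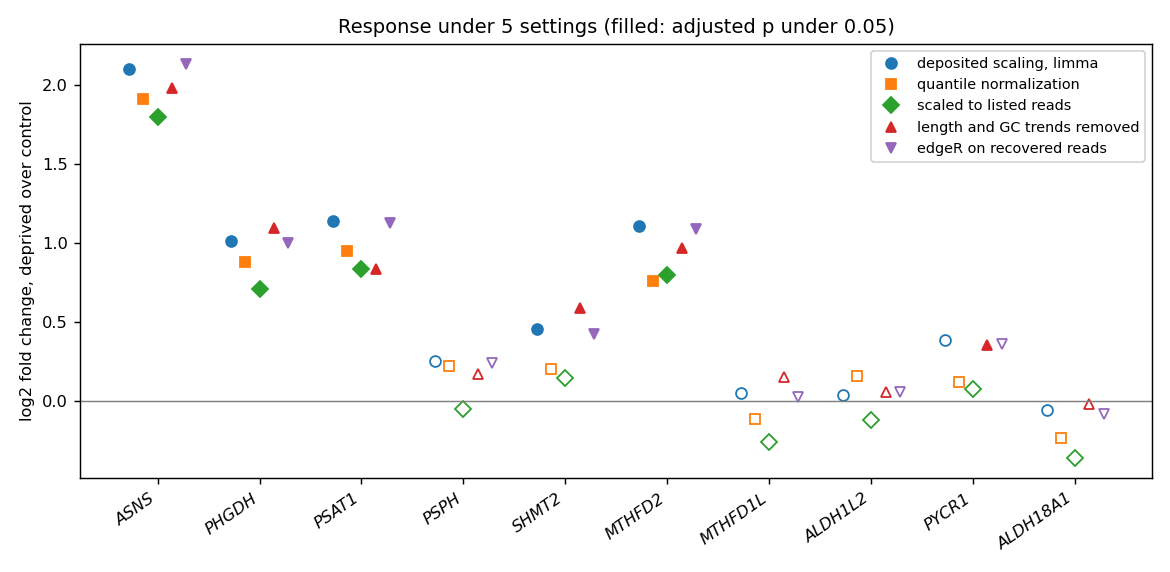
Log2 fold change of deprived over control medium for the 10 members under the authors' scaling with limma, quantile normalization, scaling to listed reads, removal of length and GC trends, and edgeR on recovered reads, filled where the adjusted p was under 0.05. ASNS, PHGDH, PSAT1 and MTHFD2 are filled in all 5 settings, SHMT2 in 3 and PYCR1 in 1.

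Some reads can be shared with other loci. The annotation holds 4 pseudogenes of ASNS, 4 of PSAT1, 1 of PSPH and 7 of MTHFD2, none of them among the rows of the table. Exons of SHMT2 overlap NDUFA4L2 on the other strand, those of MTHFD2 overlap SLC4A5 and AC006030.1, and those of ALDH1L2 overlap C12orf45. Of the counterparts, exons of SHMT1 overlap SMCR8, those of MTHFD1 overlap ZBTB25 and those of MTHFD2L overlap AC093677.2, also on the other strand. A strand setting is not given in the sources used here, so reads of such pairs cannot be told apart. Among members, exons of PYCR1 overlap MYADML2 and those of ASNS overlap AC079781.5 on the same strand, neither of them among the rows.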

How the data were processed

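RNA was selected with oligo-dT beads, per the labels' protocols, and sequenced for 6 HCT116 libraries. Bowtie2, BWA and hg19 appear in the submitters' processing notes without a role or order, while the counter, the annotation and the scaling are not given in the sources used here. The authors deposited 1 normalized signal per gene and library. Every value (100%) equals a whole read number times a constant of its library, within 0.01 read, and those reads were recovered. Genes without reads in NC control cells are not among the rows. Precision is limited by read number, and p-values cover the spread between single libraries only.

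A gene was tested if at least 2 libraries reached a signal of 1. The main tests used limma 3.58.1 in R 4.3.3 on log2(value + 1) with an intensity trend, with Benjamini-Hochberg adjustment over all tested genes. Response and knockdown used additive terms for genotype and medium, the genotype difference and the shYAP response used separate cell means, and the constructs used the 4 shYAP libraries. On recovered reads edgeR 4.0.16 called 1856 genes higher and 1992 lower in the response, and DESeq2 1.42.0 called 2099 and 2041. Transcript lengths and GC content, found for 14686 genes, are from GENCODE v29 (GRCh38), and promoters from RefSeq (GRCh38.p14).

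Both libraries of a line share its construct and so form a pair. Their deviations from the mean of their medium had a correlation of 0.46 for NC, 0.33 for shYAP3 and 0.0100 for shYAP1. Members and lists were chosen with earlier results of these data known. All members and counterparts are named, and of each other list the genes that passed and the one nearest to passing. A few genes first chosen for the lists are not reported here; the list counts cover every other gene of a list, named or not. Alternatives covered scaling, filter, pseudocount, tool, length and GC trends, pairing and each library left out.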

Additional observations from a re-analysis of the deposited data

How the results depend on the processing

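The count of members higher in the response was 5, and 0 members were lower in any setting. Over the fits without 1 library the count was 4 to 6, beside 3.88% to 23.5% of all genes higher. Over all settings it was 4 to 7. The count of 7 came only with length and GC trends removed and without the shYAP3 deprived library (22.2% of genes higher). That setting was chosen after seeing the data. Within shYAP cells it was 4, against 0 with no filter and 1 to 7 without 1 library. Fits without an NC library reduce to the response in shYAP cells. The ratio of MTHFD1L to MTHFD1 had a log2 difference of −0.12, with −0.27 to 0.040 without 1 library, the positive value without the shYAP3 deprived library; the cause was not tested. With the construct as a replicate block 5 members were higher in the response and 4 within shYAP cells, and the block changed no call among the members. Of the other values computed for the genes named, 107 fell below and 99 passed above the threshold under an alternative with unchanged direction, and 0 calls reversed. The difference between genotypes could not be fitted without an NC library, and the constructs could not be tested without any shYAP library. Over all genes the response held 473 higher and 612 lower without the shYAP3 control library and 2871 higher and 2432 lower without the shYAP3 deprived library. The call for SHMT2 was lost under both other scalings, PYCR1 passed under neither, and ALDH1L2 had only 12 to 24 reads.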
